A study of Mus musculus with 6 samples.

Results

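The 10 immediate early and AP-1 genes described here are Fos, Fosb, Jun, Junb, Jund, Atf3, Egr1, Egr2, Nr4a1 and Ier2. They were chosen by their Ensembl mouse gene identifiers, and all 10 were among the 27835 features of the table. Their expression was read in Kupffer cells, the macrophages that live in the sinusoids of the liver, on single-colour oligonucleotide arrays (Affymetrix Mouse Gene 2.0 ST). Kupffer cells of monocyte origin (mKC) and of embryonic origin (eKC) were each sorted from 3 mice, and each sort gave 1 array, 6 in all.

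All mice had a C57Bl/6 background and carried CX3CR1-CreERT+/+ with a tdTomato reporter behind a floxed stop. CX3CR1-CreERT is a ligand-dependent Cre recombinase driven by the gene of the fractalkine receptor, so the reporter marks cells that expressed that gene when Cre was active, and their descendants. All mice were given what the labels call sRBC, without spelling it out, and the labels give neither an untreated mouse nor an age. Both sorts took cells with the leukocyte antigen CD45 and a macrophage surface antigen but without CD11b. The mKC gate was GFP+ and tdTomato-, and the eKC gate was GFP- and tdTomato+, so origin and any other property that differs between the gates cannot be told apart. Each sample held 50000 cells sorted into cooled lysis buffer, and 2 ng of its RNA was amplified. The values are log2 intensities after RMA. The table used here pairs no other identifier with a symbol, so the marker genes of Kupffer cells and of other cell types could not be looked up.

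Immediate early genes are transcribed within minutes of a stimulus from factors already present in the cell, without new protein synthesis. Their products are mostly transcription factors, and the FOS, JUN and ATF proteins pair through leucine zippers to form AP-1, which in macrophages takes part in responses to growth factors, microbial products and adhesion. The same genes are known to respond to tissue digestion and cell sorting, so in freshly isolated cells their level can reflect the living tissue, the isolation, or both. The samples used here hold no liver tissue or cells that were spared isolation, and the share of the signal that arose during isolation was not tested.

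The transcripts are short-lived and depend on response elements close to the start site. A binding site core of the CREB and ATF factors, TGACG, was sought in the RefSeq promoter windows (GRCm38.p6), in the 250 bases before the start and on both strands. Windows of 8 of the 10 genes, all but Egr1 and Ier2, were used, and a gene with several windows counts once if any of them matches. Of these, 6 (Fos, Fosb, Junb, Atf3, Egr2 and Nr4a1) had at least 1 TGACG, as did 19.8% of all 27025 genes with a window. The 250 bases searched in Fos and in Nr4a1 are shown as examples from genes with larger mean differences between populations. TATAAA is in capitals, and so is TGACG, which reads CGTCA where it lies on the other strand. These stretches lie at chr12:85473640-85473889, plus strand, and chr15:101266596-101266845, plus strand. The Nr4a1 window belongs to a start inside the annotated gene, which begins further upstream.
Fos: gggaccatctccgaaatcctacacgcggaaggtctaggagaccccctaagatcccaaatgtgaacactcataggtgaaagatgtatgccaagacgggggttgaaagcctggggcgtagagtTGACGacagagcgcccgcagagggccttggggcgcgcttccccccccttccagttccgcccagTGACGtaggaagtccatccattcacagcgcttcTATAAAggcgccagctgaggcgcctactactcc
Nr4a1: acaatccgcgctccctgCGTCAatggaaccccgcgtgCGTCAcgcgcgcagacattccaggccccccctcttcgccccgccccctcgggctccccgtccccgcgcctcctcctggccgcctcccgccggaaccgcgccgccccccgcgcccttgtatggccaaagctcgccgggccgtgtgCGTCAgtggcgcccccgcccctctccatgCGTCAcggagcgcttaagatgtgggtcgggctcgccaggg

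In Fos the TGACG nearest the start began at position -66 and TATAAA, the TATA box, at -33, counted from the start at 0. TATAAA was found in Fos alone of the 8 genes and in 14.3% of all genes. In Fosb the single TGACG began at -60. It is shown in capitals in 30 bases of the minus strand at chr7:19310088-19310117. These bases lie inside the annotated gene, which begins further upstream than the start used here.
Fosb: tggagttgcgggTGACGcaagcgcgggggc

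The CArG box is the core to which serum response factor binds. Within the 250 bases searched, it was found in Egr2 alone of the 8 genes and in 1.62% of all genes. A box further upstream, in Fos or any other gene, would not have been seen. Of the 5 Egr2 windows, which start at different transcripts and partly overlap, 4 held a CArG box, at 2 distinct places. Both are shown in 30 bases of the plus strand with the box in capitals, at chr10:67537484-67537513 and chr10:67537787-67537816. Both places lie inside the annotated gene, which begins further upstream.
Egr2, first place: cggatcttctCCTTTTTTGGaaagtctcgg
Egr2, second place: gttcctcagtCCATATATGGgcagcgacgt

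The full element TGACGTCA was found in 0 of the 8 genes, against 1.77% of all genes. TGANTCA (N stands for any base), a pattern wider than the AP-1 site it takes in, was found in 0 of the 8, against 7.82%. The binding site GCGNGGGCG of the EGR proteins was found in Fosb and Nr4a1, against 5.33% of all genes. TGACG is contained in TGACGTCA, and none of the other matches in Fos, Fosb and Nr4a1 overlapped each other. These are matches of letters in a short window. They say nothing of sites outside it or of binding in these cells.

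The arrays had been brought to a common scale before deposit, with medians of 5.21 to 5.28. The first principal component over all features held 45.2% of the variance and parted the populations, with scores of 19.8 to 24.2 for mKC arrays and -23.0 to -20.8 for eKC arrays. Both arrays of animal 2 stood apart. On component 3 its mKC array lay at -24.4, where the mKC arrays of animals 1 and 3 lay at 10.8 and 13.2. On component 2 its eKC array lay at 25.6, where the eKC arrays of animals 1 and 3 lay at -12.9 and -12.4. Values without animal 2 are given beside the results below that it moves most.

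The mean difference was above 0, that is higher in mKC, for all 10 genes, against 47.8% of all features, but it was small, and 0 of 10 passed the threshold (limma with the animal as a block, Benjamini-Hochberg adjusted p under 0.05 over all features). The mean differences ran from 0.01 for Atf3 to 0.51 for Fos on the log2 scale, with a median of 0.26, against a median of -0.0079 over all features. Fos, Nr4a1, Egr2 and Fosb had the largest, at 1.43, 1.34, 1.33 and 1.30-fold. Without animal 2 the order changed, with Fos at 1.33, Egr2 at 1.32, Nr4a1 at 1.27, Egr1 at 1.21, Ier2 at 1.19 and Fosb at 1.18-fold. Over all features 1.82% passed the threshold, 0.995% as higher in mKC, so a count of 0 among 10 genes is near the background. The 506 features behind that share were 252 without animal 1, 369 without animal 2 and 171 without animal 3, and the count among the 10 genes was 0 each time. The smallest difference that passed anywhere in the table, without its sign, was 0.53, which is larger than that of any of the 10 genes. The mean difference of Atf3 was below 0 without animal 2 and with array weights. The other 9 stayed above 0 under every alternative that can move the mean, namely scaling, array weights and an animal left out.

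At an unadjusted p under 0.05, 6 of the 10 genes were higher in mKC, against 6.33% of all features. The 6 were Fos, Fosb, Junb, Egr1, Egr2 and Nr4a1. The difference was above 0 in 3 of 3 animals for 8 of 10 genes, against 16.1% of all features, and every mKC array lay above every eKC array for 6 of 10, against 8.91% of all features. Among the 6959 features above the 75th percentile of mean level, these shares were 8.74%, 24.9% and 15.4%. The 10 genes were measured on the same 6 arrays, so the counts are not 10 separate observations. In sorted bulk samples, more cells expressing a gene and more RNA per cell cannot be told apart.

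**Figure D1:**
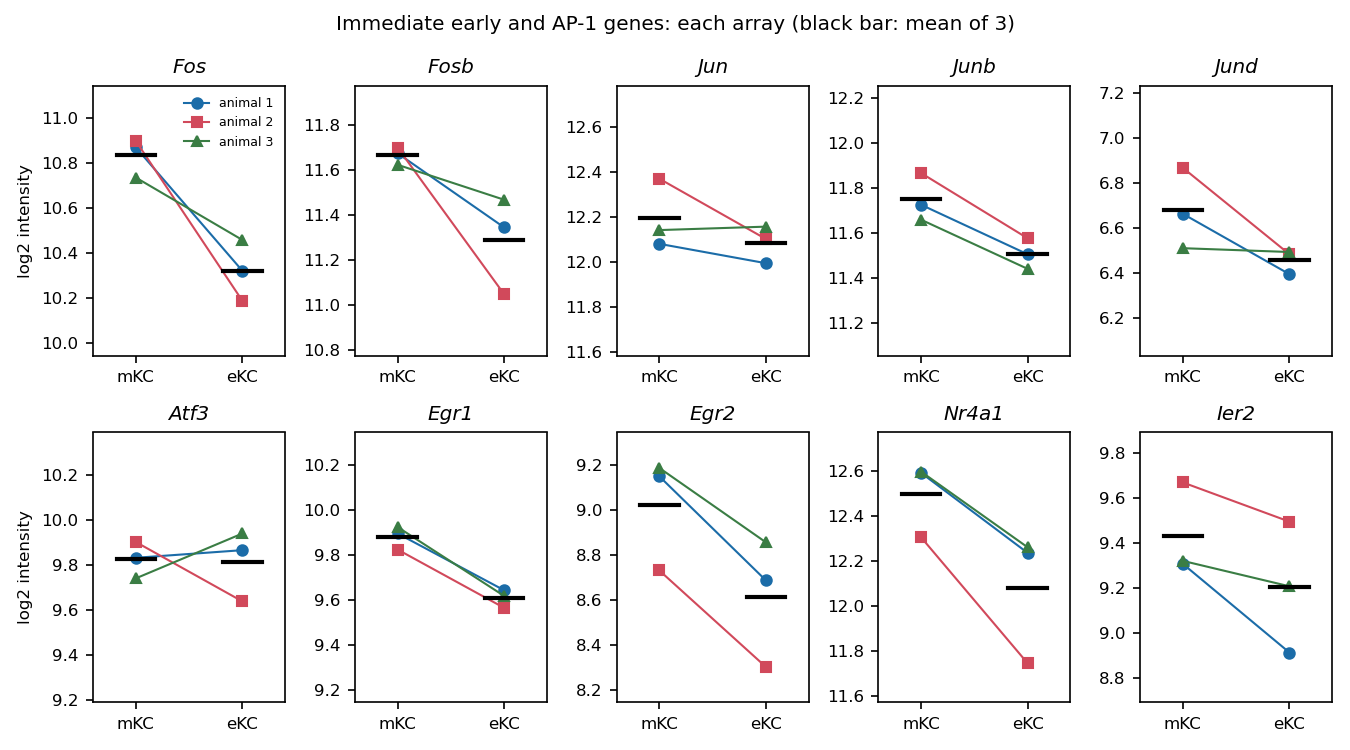
Log2 intensity of each gene in the 3 mKC arrays (left) and the 3 eKC arrays (right), with a line for each animal, a black bar for the mean and a vertical span of 1.2 in every panel. Most lines run downward to the right, and the lines of animals 1 and 3 in Atf3 and of animal 3 in Jun run upward.

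Fos (ENSMUSG00000021250) encodes the partner of JUN proteins that gave AP-1 its FOS family, and it cannot form AP-1 with itself. In mKC it read 10.87, 10.90 and 10.74 in animals 1, 2 and 3, against 10.32, 10.19 and 10.46 in eKC. Every mKC value lay above every eKC value, and the gap was widest in animal 2 and narrowest in animal 3. Fos averaged 10.84 ± 0.0868 in mKC and 10.32 ± 0.135 in eKC (log2, SD, n = 3 each). The difference was 0.51 ± 0.114 (limma SE), with a 95% interval of 0.24 to 0.79 that takes no account of the other features tested, or 1.43-fold (1.18 to 1.73). Its unadjusted p in limma was 0.00383 and its adjusted p 0.121. Over all features, its difference stood at the 97.8th percentile, and without animal 2 it was 0.41. Fos passed the threshold in limma without the block (adjusted p = 0.0440), with the animal as a random effect (0.0480) and with an intensity trend and robust estimation (0.0218), within a range of 0.0218 to 0.410 over 12 alternatives, so its call depends on how the spread is modelled.

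Fosb (ENSMUSG00000003545) encodes a second FOS protein, whose shorter splice form builds up in neurons under repeated stimulation. It read 11.67, 11.70 and 11.62 in mKC, against 11.34, 11.05 and 11.47 in eKC. The mKC arrays lay close together and the eKC arrays were spread, with animal 2 lowest, and the groups did not overlap. The difference was 0.38 ± 0.121 (limma SE; adjusted p = 0.289), or 1.30-fold, and in single animals it was 0.33, 0.65 and 0.16. Without animal 2 the mean difference was 0.24.

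Jun (ENSMUSG00000052684) encodes the FOS partner that gave the JUN family its name. It read 12.08, 12.37 and 12.14 in mKC, against 12.00, 12.10 and 12.16 in eKC. The groups overlapped, with the eKC value of animal 3 above the mKC values of animals 1 and 3. The difference was 0.11 ± 0.101 (limma SE; adjusted p = 0.766), and its 95% interval, -0.13 to 0.36, spans 0 and reaches at most 1.28-fold. Leaving out 1 animal moved the mean difference to between 0.035 (without animal 2) and 0.18 (without animal 3).

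Junb (ENSMUSG00000052837) encodes a JUN protein that often restrains JUN-driven transcription. It read 11.73, 11.87 and 11.66 in mKC, against 11.51, 11.58 and 11.44 in eKC. The groups did not overlap, and the differences within animals were alike, at 0.22, 0.29 and 0.22. The mean difference was 0.24 ± 0.0899 (limma SE; adjusted p = 0.368). Over 12 alternatives the adjusted p in limma ran from 0.0402, with an intensity trend and robust estimation, to 0.736.

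Jund (ENSMUSG00000071076) encodes the JUN protein that in most cells is present before stimulation and responds least to it. It had the lowest intensity of the 10, at the 67.2th percentile of all features, although a probe set's intensity does not rank transcripts by abundance. It read 6.66, 6.87 and 6.51 in mKC, against 6.39, 6.48 and 6.49 in eKC. The groups did not overlap, but in animal 3 the mKC value exceeded the eKC value by only 0.017. The difference was 0.22 ± 0.108 (limma SE; adjusted p = 0.512), and 0.14 without animal 2.

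Atf3 (ENSMUSG00000026628) encodes a stress-induced factor that binds as a pair with itself or with JUN proteins and damps inflammatory gene expression in macrophages. It read 9.83, 9.90 and 9.74 in mKC, against 9.87, 9.64 and 9.94 in eKC. The groups overlapped, and the mKC value was the higher of the pair in 1 of 3 animals, animal 2. The difference was 0.01 ± 0.118 (limma SE; adjusted p = 0.986). Its 95% interval, -0.28 to 0.30, or 0.826 to 1.23-fold, leaves room for a difference of either sign. Without animal 2 the mean difference was -0.12.

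**Figure D2:**
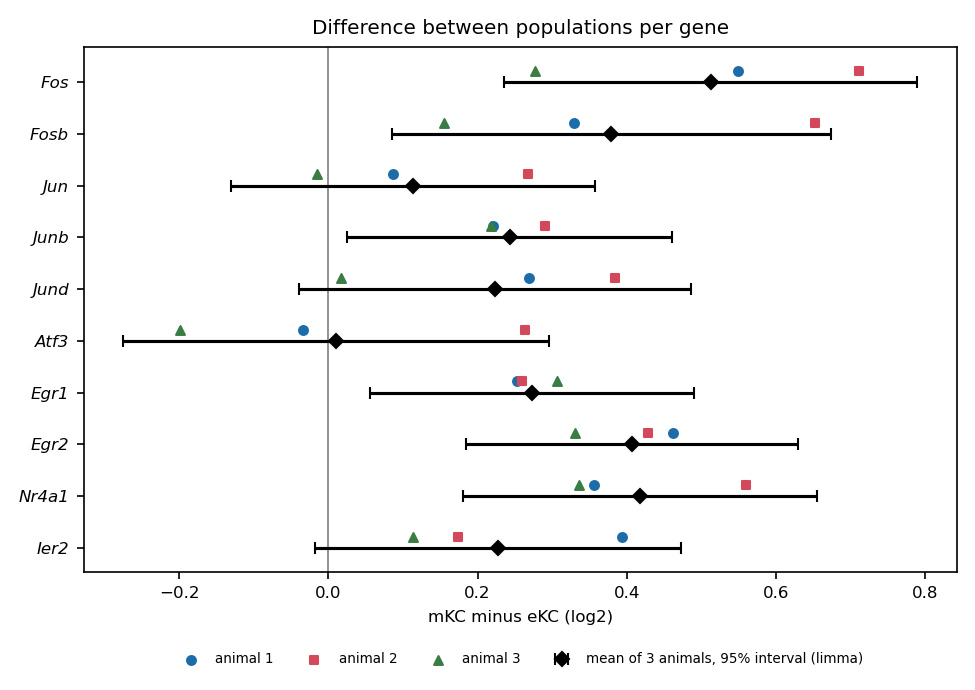
Difference mKC minus eKC (log2) for each gene: black diamonds with bars are the mean of 3 animals and its 95% interval from limma, and coloured marks are the single animals. All 10 means lie above 0, and the intervals of 4 genes (Jun, Jund, Atf3 and Ier2) span 0.

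Egr1 (ENSMUSG00000038418) and Egr2 (ENSMUSG00000037868) encode zinc finger factors of the EGR family. Egr1 is a widely used readout of growth factor and serum signalling, and Egr2 is known in macrophages as a factor of alternative activation and of the alveolar and peritoneal lineages. Egr1 read 9.89, 9.82 and 9.92 in mKC, against 9.64, 9.56 and 9.62 in eKC. The groups did not overlap, and Egr1 had the most even within-animal differences of the 10, at 0.25, 0.26 and 0.31. The mean difference was 0.27 ± 0.0894 (limma SE; adjusted p = 0.302), or 1.21-fold.

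Egr2 read 9.15, 8.73 and 9.19 in mKC, against 8.69, 8.30 and 8.86 in eKC. Both arrays of animal 2 were the lowest of their population, so the groups overlapped even though mKC was the higher within each animal, by 0.46, 0.43 and 0.33. The difference was 0.41 ± 0.0917 (limma SE), or 1.33-fold, with an unadjusted p of 0.00402 and an adjusted p of 0.125. Over 12 alternatives the adjusted p in limma ran from 0.0488, with an intensity trend and robust estimation, to 0.481.

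Nr4a1 (ENSMUSG00000023034) encodes an orphan nuclear receptor, also called NUR77, which monocytes of the patrolling type need for their development. It read 12.59, 12.31 and 12.60 in mKC, against 12.24, 11.75 and 12.26 in eKC. As in Egr2, both arrays of animal 2 were the lowest of their population, but the groups of Nr4a1 did not overlap. The difference was 0.42 ± 0.0978 (limma SE), or 1.34-fold (95% interval 1.13 to 1.57), with an unadjusted p of 0.00486 and an adjusted p of 0.138. Without animal 2 the difference of Nr4a1 was 0.35. Over 12 alternatives the adjusted p in limma ran from 0.00706, again with the trend and robust estimation, to 0.391.

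Ier2 (ENSMUSG00000053560) encodes a small nuclear protein induced within minutes by serum. It read 9.31, 9.67 and 9.32 in mKC, against 8.91, 9.49 and 9.21 in eKC. Here animal 2 was the highest of each population, and the groups overlapped. The difference was 0.23 ± 0.101 (limma SE; adjusted p = 0.466), and it ran from 0.11 in animal 3 to 0.39 in animal 1. Without animal 1 the mean difference was 0.14.

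The 95% intervals of all 10 genes lay within 1 on the log2 scale, that is below a 2-fold difference in either direction. The share of all features with such an interval was not counted. The median limma SE was 0.101 for the 10 genes and 0.105 over all features, so intervals this narrow are not particular to them. Of the 10 intervals, 6 lay wholly above 0. They belong to the 6 genes with an unadjusted p under 0.05 in limma, a share of 6.33% over all features, and are no further result. The upper ends for the 10 genes ran from 1.23-fold for Atf3 to 1.73-fold for Fos. These limits hold on the RMA scale. Of the 10 genes, 9 had a mean level above the 75th percentile of all features and 8 above the 90th percentile, where the compression that RMA gives at low intensity is less of a concern. Fosb, Jun, Junb and Nr4a1 stood at the 98.8, 99.5, 98.9 and 99.6th percentiles, and a compression near the upper end of the array scale was not measured.

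**Figure D3:**
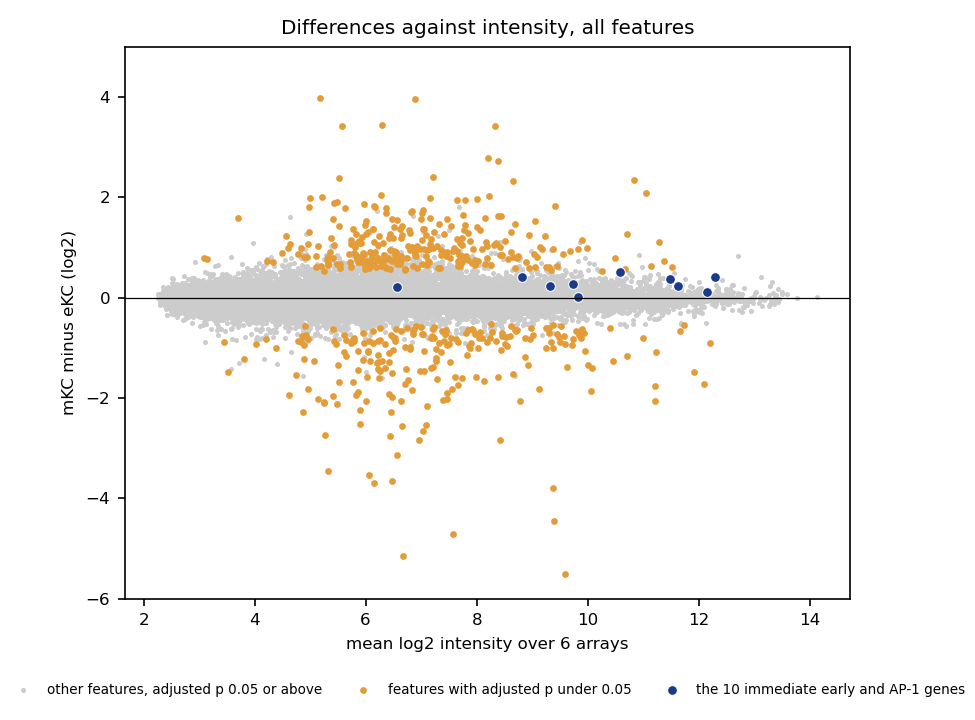
Difference mKC minus eKC (log2) against mean log2 intensity for 27835 features, with the features past the threshold in orange and the 10 genes in dark blue. The 10 genes lie between 0.01 and 0.51, while features past the threshold reach from -5.51 to 3.99.

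The differences were not of one size across the animals. The difference was largest in animal 2 for 7 of the 10 genes and smallest in animal 3 for 9 of 10. How many of all features have that order was not counted, so these counts only describe the 10 genes on their shared arrays. The median over the 10 genes was 0.30 in animal 1, 0.34 in animal 2 and 0.19 in animal 3, against -0.0048, 0.0025 and -0.0087 over all features. With animal 2 left out, 9 of the 10 mean differences stayed above 0 and Atf3 turned. In limma, 4 genes then had an unadjusted p under 0.05 in place of 6, with 0 of 10 past the adjusted threshold. That unadjusted count was 4 without animal 1 and 5 without animal 3, so the drop is not particular to animal 2. Over all 27835 features the unadjusted count was 3269 with all animals, and 2313, 3444 and 2727 without animals 1, 2 and 3. Without animal 2 it thus rose over all features while it fell among the 10 genes. Each fit with an animal left out has 1 residual degree of freedom in place of 2.

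**Figure D4:**
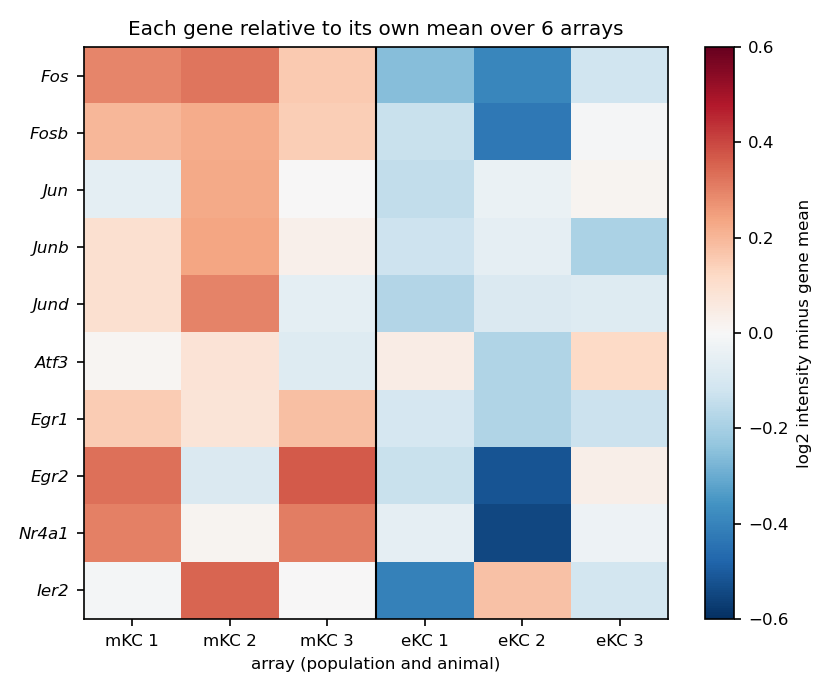
Log2 intensity of each gene minus its own mean over 6 arrays, with the 3 mKC arrays to the left and the 3 eKC arrays to the right of the line. The mKC side is mostly red (above the mean) and the eKC side mostly blue, and Egr2 and Nr4a1 are lower, and Ier2 higher, in the arrays of animal 2 than in the others of the same population.

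Because both populations were taken from each animal, the spread among animals was set beside that between populations. The mean of an animal's mKC and eKC arrays differed among animals most for Egr2, Ier2 and Nr4a1, with ranges of 0.50, 0.47 and 0.40, at the 96.7, 95.9 and 93.1th percentiles of all features. For Egr2 the animal means were 8.92, 8.52 and 9.02, and for Nr4a1 12.42, 12.03 and 12.43, with animal 2 lowest. For Ier2 they were 9.11, 9.58 and 9.26, with animal 2 highest.

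The range among animals was larger than the mean difference between populations for Egr2, Ier2, Jun and Atf3, and close to it for Nr4a1. In each of these genes animal 2 stood at 1 end of the range, and leaving out the outermost of 3 animals can only narrow it. The means of animals 1 and 3 differed by 0.10 for Egr2, 0.15 for Ier2 and 0.015 for Nr4a1, each below the difference between populations without animal 2 of 0.40, 0.25 and 0.35. For Jun they differed by 0.11, against 0.035 between populations, and for Atf3 by 0.0086, against -0.12. For Fos, whose animal means were 10.60, 10.54 and 10.60, the range over all 3 animals was 0.054, at the 9.48th percentile. In limma's moderated F-test across animals, with the population in the model, 0 of 10 genes and 0 of 27835 features (0%) had an adjusted p under 0.05. At an unadjusted p under 0.05 in this F-test there were 3 of 10 genes, Egr2 (0.00856), Ier2 (0.0219) and Nr4a1 (0.0233), against 4.71% of all features. Without animals 1, 2 and 3 in turn, the count was 2, 0 and 3 of 10. The share of all features in those smaller fits was not counted. Fit on 6 arrays, this test had 2 residual degrees of freedom per feature. Deviations of the 2 arrays of an animal from their group means, correlated across the 10 genes, were 0.842, 0.817 and 0.590 in animals 1, 2 and 3, and across all 27835 features -0.032, 0.026 and -0.019. Genes are not independent replicates, so these values only describe how alike the 2 sorts of an animal were for these genes. An animal's own level and any handling that its samples shared cannot be told apart.

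The features most like the 10 genes were sought over the 6 arrays, by Pearson's r with the mean of the genes' values, each centred on its own mean. The 4 highest were 0.992 to 0.995. ENSMUSG00000061887 had the highest r, 0.995, and averaged 7.43 in mKC and 7.16 in eKC (limma, adjusted p = 0.368). ENSMUSG00000026632 followed with 0.992, and averaged 8.55 in mKC and 8.06 in eKC (limma, adjusted p = 0.115). An r of at least 0.9 was reached by 516 of the 27825 other features (1.85%). The 6 arrays are 3 pairs that fall into 2 populations, so any feature with a steady difference of the same sign scores high here, and r is given as a description.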

How the data were processed

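RNA from 6 sorted Kupffer cell samples, 3 mKC and 3 eKC from 3 mice, was hybridised to Affymetrix Mouse Gene 2.0 ST arrays. The deposited log2 values were made with RMA, per the submitters' processing notes. The base of the logarithm was taken from the range of the values, 2.09 to 14.2, and neither the software nor a probe definition is stated in the labels. The table has no detection calls, and the number of animals limits the precision.

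All 27835 features entered 1 fit (lmFit and eBayes of limma 3.58.1, under R 4.3.3), as mKC minus eKC with the animal as a block, two-sided, with Benjamini-Hochberg adjustment over all features and no intensity filter. The fit had 2 residual degrees of freedom, and empirical Bayes added 4.21. A moderated F-test compared animals. Both were tested on simulated data. The series' design text gives the pairing by mouse; the deviations of an animal's 2 arrays correlated at -0.032, 0.026 and -0.019 over all features.

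All 10 genes are named by rule, with symbols as that rule gives them. The members, the lists and the tests were chosen with earlier results of these data known. The lists of further immediate early genes, AP-1 partners, upstream and repressor genes, heat shock genes and cell type markers could not be run, because the reference table (49997 genes) holds 0 Ensembl identifiers. Promoter windows were matched by symbol to RefSeq (GRCm38.p6), and no window was used for Egr1 or Ier2. Alternatives changed the pairing (none, or animals as random effects), the scaling (quantile or median), the features tested (lowest 30% or 50% of mean levels left out), the variance model (trend with robust estimation, or array weights), the threshold (adjusted p under 0.1) and the animals (each left out).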

Additional observations from a re-analysis of the deposited data

How the results depend on the processing

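The count of genes past the threshold for mKC minus eKC, 0 of 10, was 1 without the replicate block (Fos), 1 with the animal as a random effect (Fos) and 4 with an intensity trend and robust estimation (Fos, Junb, Egr2 and Nr4a1). Over all 27835 features, 608, 546 and 705 passed under these settings, in the same order, against 506 in the main fit. The count among the 10 genes was 0 under the other alternatives run, including an adjusted p under 0.1 (745 of all features), and 0 with any 1 animal left out. Without the replicate block, 6 genes had an unadjusted p under 0.05, as in the paired fit, against 3443 of all features. No call among the 10 other than that of Fos changed. Since the design gives the pairing, the blocked values are those reported. The count of genes that differed among animals was 0 under each of the alternatives run for it. Changes of the pairing, the features tested, the trend with robust estimation or the threshold left the mean difference itself as it was. Only scaling, array weights or an animal left out could turn its sign. Of 120 refits, each of 1 gene under 1 alternative and many of them thus fixed in direction, 118 kept the direction. The 2 that did not were both of Atf3, at -0.025 with array weights, which gave the arrays of animal 2 a weight of 0.726, and -0.12 without animal 2, in a range of -0.12 to 0.12 over the fits that leave out 1 animal each. The cause of these changes was not tested. Of all 27835 features, 506 passed, and 171 to 369 with 1 animal left out. Leaving out 1 animal leaves 1 residual degree of freedom in place of 2. Signal over background is not in the values, and detection could not be assessed.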
